A study of Mus musculus with 12 samples.

Results

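Chromosome 8 was represented by 4989 of the 88737 probes on mouse CpG island arrays that were hybridised with DNA of 4 ES cell lines. The chromosome was chosen by measured values, because its input signal differed between the lines, and its members are all probes that the array design places on chromosome 8 of mouse genome build mm9. The differences in input signal are therefore described without a test and support nothing else. Copy number was not measured independently, so the term input signal is used throughout. The files used do not pair probes with genes, and regions are given by position.

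The array study asked whether mtDNA of different origin alters DNA methylation of one shared chromosomal background. All lines came from CC9.3.1 ES cells of *M. musculus*, derived from a 129SvEv-Gpi1c(129S6) embryo, and had been reconstructed with mtDNA from a donor. The mtDNA was that of *M. musculus* in CC9 mus, with the genotype of the parental cells, of *M. pahari* in CC9 pahari, of *M. spretus* in CC9 spretus and of *M. terricolor* in CC9 dunni. Each haplotype was represented by 1 reconstructed line and 3 replicate arrays, so mtDNA origin and any other difference between the lines cannot be told apart. The cells had been kept for 48 h without feeder cells, and the arrays, which measure DNA, do not check cell identity by expression.

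CpG islands are short stretches of DNA rich in CpG sites, often at promoters, and most of them lack methylation. In methylated DNA immunoprecipitation (MeDIP), an antibody to 5-methylcytosine enriches methylated fragments (IP), and the IP signal is read against that of unselected input DNA. A gain of chromosome 8 is a recurrent change in cultured mouse ES cells, and a region with more copies contributes more DNA to the input and to the IP alike.

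On each array, IP was labelled with Cy5 and input with Cy3. The input shift of a probe is its log2 input signal, centred on the array median, minus the mean of that probe over the 12 arrays. The shift of a region is the median over its probes, and the IP shift and the shift of the log2 ratio of IP over input were obtained in the same way. Because each shift is relative to the mean of the lines, a higher value in one line goes with lower values in the others. The arrays lay on 8 slides. By the file headers there were an earlier scan period, with replicates 1 and 2 of CC9 pahari, CC9 spretus and CC9 dunni, and a later one, with their replicate 3. All CC9 mus arrays belonged to the later period, on 1 day that they shared with no other line, so that this day and the line cannot be told apart.

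Signal over background took the place of depth. Input was well above background for 92.6% of chromosome 8 probes on CC9 dunni replicate 1, the lowest of the 12 arrays, and for 99.8% on CC9 spretus replicate 1, the highest. For IP the CC9 mus arrays gave 98.3%, 75.8% and 88.7%, and the others ranged from 81.0% to 96.0%. The CC9 mus arrays thus held both the highest and the lowest share of measured IP spots. Of the 4989 probes, 3411 were well above background in both channels on all 12 arrays, and precision is limited by the small number of arrays.

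CC9 pahari had the highest input signal on chromosome 8 and CC9 mus the lowest. In CC9 pahari the input shift was 0.20, 0.21 and 0.30 on replicates 1, 2 and 3, with a mean of 0.24 ± 0.06 (SD, n = 3). In CC9 mus it was −0.19, −0.19 and −0.15, with a mean of −0.18 ± 0.02 (SD, n = 3). The arrays of these lines did not overlap. The CC9 spretus arrays gave 0.06, 0.13 and 0.11 (0.10 ± 0.04, SD, n = 3), and the CC9 dunni arrays −0.10, −0.11 and −0.16 (−0.12 ± 0.03, SD, n = 3). Both lines thus lay between the extremes, CC9 spretus above 0 and CC9 dunni below 0 on every array, and replicate 3 of CC9 dunni reached the range of CC9 mus.

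The difference of CC9 pahari from CC9 mus was 0.41 on the log2 scale, a 1.33-fold higher input signal, and that from CC9 dunni was 0.36 (1.28-fold). The input of CC9 spretus exceeded that of CC9 mus by 0.28 (1.21-fold). CC9 dunni and CC9 mus differed by 0.05, which is of the order of the spread between their replicates. When the median shift of all probes off chromosome 8 was subtracted on each array, which was chosen after the data were seen, the input shift was −0.23, −0.24 and −0.23 in CC9 mus and −0.10, −0.11 and −0.11 in CC9 dunni, without overlap. The closeness of these lines thus depends on the probes used as reference. The shift was carried by many probes, since 74.1%, 75.3% and 79.9% of the chromosome 8 probes lay above 0 on the CC9 pahari arrays and 33.4%, 34.5% and 40.5% on the CC9 mus arrays. Over all probes of the array that share was 44.4% to 55.1%.

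Within a scan period the reference was the mean of the line means of that period. In the later period the input shift was −0.19 in CC9 mus, 0.28 in CC9 pahari, 0.14 in CC9 spretus and −0.17 in CC9 dunni. In the earlier period, which held no CC9 mus array, it was 0.15 in CC9 pahari, 0.00 in CC9 spretus and −0.12 in CC9 dunni. The order of the lines was the same in both periods. With normexp, a background correction that fits signal and background on each array, the shift was −0.09 in CC9 mus and 0.03 in CC9 spretus. It was −0.04 in CC9 dunni and 0.19 in CC9 pahari.

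The other chromosomes were measured in the same way. In CC9 pahari the 19 other chromosomes lay between −0.09 (chromosome 6) and 0.02 (chromosome 10), and chromosome 8 was the highest of all. In CC9 mus the others lay between −0.08 (chromosome X) and 0.30 (chromosome 6), and in CC9 dunni between −0.11 (chromosome 6) and 0.03 (chromosome 11). Chromosome 8 had the lowest value in both of these lines, and in CC9 dunni it was next to chromosome 6. In CC9 spretus the others lay between −0.07 (chromosome 6) and 0.13 (chromosome X), so that chromosome 8 did not stand apart from them.

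To follow the shift along the chromosome, probes were placed in windows of 5 Mb, of which 26 held at least 10 probes (513 in the genome). A window was counted as raised or lowered if the mean input shift of a line was above 0.2 or below −0.2, a 1.15-fold change. In CC9 pahari, 24 of the 26 windows were raised, and these 24 were all the raised windows of the genome (4.68%). All 26 windows were above 0 on each of the 3 CC9 pahari arrays, so that the higher input extended from end to end. The highest window was 65–70 Mb, with 0.34, 0.33 and 0.37 on the 3 arrays, and next came 15–20 Mb with 0.29, 0.30 and 0.36. The lowest were 100–105 Mb, with 12 probes and 0.05, 0.13 and 0.32, and 130–135 Mb, with 23 probes and 0.14, 0.05 and 0.40. These were the 2 windows not raised in CC9 pahari, and they held few probes. With normexp, 9 windows were raised, again all of those in the genome.

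In CC9 mus, 10 windows of chromosome 8 were lowered (4.68% over the genome) and 0 were raised (4.09% over the genome). The lowest was 75–80 Mb, with −0.36, −0.30 and −0.18, followed by 65–70 Mb with −0.28, −0.28 and −0.26. The window at 100–105 Mb gave −0.03, −0.14 and 0.37, and that at 130–135 Mb gave −0.08, −0.07 and 0.15. Replicates 1 and 2 were below 0 in all 26 windows, and replicate 3 rose above 0 in these last windows only. Outside chromosome 8, 14 windows were lowered and 21 raised in CC9 mus. The number of lowered windows on chromosome 8 was 1 with normexp, against 22 of 513 over the genome, so that the chromosome did not stand out in that setting. It was 19 when the line itself was left out of the reference, against 47 over the genome.

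In CC9 dunni, 3 windows of chromosome 8 were lowered (1.75% over the genome) and 0 were raised (0.390% over the genome). They were 100–105 Mb, with −0.26, −0.31 and −0.31, and 130–135 Mb, with −0.20, −0.16 and −0.32, which hold few probes, and 80–85 Mb, with 127 probes and −0.30, −0.22 and −0.14. The highest windows were 55–60 Mb, with 0.05, 0.10 and −0.01, and 65–70 Mb, with 0.07, 0.02 and −0.08. The count was 1 without CC9 spretus replicate 3, 0 with normexp, 5 in the later scan period alone and 5 when the line itself was left out of the reference. Over the genome normexp, the later scan period and that reference gave 2, 19 and 14 of 513.

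In CC9 spretus, 2 windows of chromosome 8 were raised (1.75% over the genome) and 0 were lowered (0% over the genome, as for lowered windows in CC9 pahari). These were 115–120 Mb, with 0.23, 0.19 and 0.21, and 90–95 Mb, with 0.18, 0.22 and 0.21. The lowest windows were 15–20 Mb, with −0.30, 0.15 and −0.12, and 10–15 Mb, with −0.19, 0.08 and −0.12. In these lowest windows replicate 2 was above 0 and replicates 1 and 3 below 0. The count of raised windows was 0 without CC9 spretus replicate 3 or CC9 dunni replicate 3, 1 without CC9 pahari replicate 3, 0 with normexp, 12 in the later scan period alone and 9 when the line itself was left out of the reference. Over the genome normexp, the later scan period and that reference gave 6, 18 and 28 of 513.

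Of the 26 windows, 13 were above 0 on CC9 spretus replicate 1, 25 on replicate 2 and 13 on replicate 3. The chromosome was therefore divided at 70 Mb, a position chosen after the window values were seen. For the 1435 probes before 70 Mb the CC9 spretus replicates 1 and 3 had input shifts of −0.13 and −0.14, and replicate 2 had 0.16. For the 3554 probes after 70 Mb, replicates 1 and 3 had 0.13 and 0.22, and replicate 2 had 0.12. On replicates 1 and 3 the later segment exceeded the earlier by 0.26 and 0.35, while on replicate 2 the difference was −0.04. In the other lines this difference was −0.06, −0.05 and −0.04 for CC9 mus, −0.06, −0.07 and −0.04 for CC9 dunni, and −0.08, −0.07 and −0.07 for CC9 pahari. Replicate 2 also stood apart at chromosome 1, where its input shift was 0.27 and that of replicates 1 and 3 was 0.03 and 0.05. A step of this size was thus seen on CC9 spretus replicates 1 and 3 and on no other array, and these 2 arrays came from different slides and different scan periods. Since the mean of the lines enters every shift, the segment before 70 Mb in the other lines is read against a reference that holds these arrays.

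In steps of 1 Mb, also set after the values were seen, the change on replicates 1 and 3 fell close to 73 Mb. At 72–73 Mb, with 245 probes, the input shift of CC9 spretus was −0.10, 0.11 and −0.11 on replicates 1, 2 and 3. At 73–74 Mb, with 339 probes, it was 0.15, 0.06 and 0.25. Replicates 1 and 3 thus went from below to above replicate 2 between neighbouring steps. The input of CC9 mus was −0.19, −0.18 and −0.09 in the first of these steps and −0.14, −0.14 and −0.11 in the next, and showed no step in that direction beyond its spread. Between the same steps CC9 dunni went from −0.04, −0.07 and −0.10 to −0.18, −0.19 and −0.17, and CC9 pahari from 0.23, 0.22 and 0.38 to 0.15, 0.14 and 0.31, so that both fell on every array where CC9 spretus replicates 1 and 3 rose.

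The IP signal of the same segments was set beside the input. The IP shift after 70 Mb minus that before it was 0.09 on CC9 spretus replicate 1, −0.01 on replicate 2 and 0.28 on replicate 3. It was −0.11, −0.01 and 0.05 on the CC9 mus arrays, −0.05, −0.07 and −0.08 on the CC9 dunni arrays and −0.07, −0.09 and −0.10 on the CC9 pahari arrays. CC9 spretus replicates 1 and 3 therefore had the highest values of IP as well, although replicate 1 exceeded CC9 mus replicate 3 by little. For the ratio, the same difference was −0.17, 0.02 and −0.03 on the CC9 spretus arrays. CC9 mus gave −0.01, 0.05 and 0.12, and CC9 dunni and CC9 pahari ranged from −0.03 to 0.00. The ratio was thus lower after 70 Mb on CC9 spretus replicate 1, where IP had followed the input in part, and higher on CC9 mus replicate 3, which had no such step in input.

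Over the whole chromosome the IP signal followed the input signal across the lines. The IP shift was 0.15, 0.14 and 0.24 in CC9 pahari (0.17 ± 0.05, SD, n = 3) and −0.18, −0.09 and −0.17 in CC9 mus (−0.15 ± 0.05, SD, n = 3). It was 0.01, 0.11 and 0.07 in CC9 spretus (0.06 ± 0.05, SD, n = 3) and −0.06, −0.06 and −0.12 in CC9 dunni (−0.08 ± 0.03, SD, n = 3). The order of the 4 lines was that of the input, and CC9 pahari overlapped no other line. The difference of CC9 pahari from CC9 mus in IP was 0.32, which is 0.777 of the difference in input, and that from CC9 dunni was 0.26, or 0.708 of the input. For CC9 spretus against CC9 mus it was 0.21, or 0.764 of the input. In these pairs, as in those of CC9 spretus with CC9 dunni (0.648) and with CC9 pahari (0.803), IP moved with the input but by less. For CC9 dunni against CC9 mus, where the input differed by 0.05, IP differed by 0.07 (1.24 of the input).

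In the later scan period alone the IP shift was −0.14 in CC9 mus, 0.24 in CC9 pahari, 0.07 in CC9 spretus and −0.14 in CC9 dunni. The earlier period gave 0.08 in CC9 pahari, 0.02 in CC9 spretus and −0.07 in CC9 dunni. CC9 pahari was highest in both periods. Among the 20 chromosomes, chromosome 8 had the highest IP shift in CC9 pahari, where the others lay between −0.02 and 0.07. In CC9 mus the others lay between −0.15 (chromosome X) and 0.20 (chromosome 6), so that chromosome X was as low as chromosome 8. With normexp the IP shift was 0.05 in CC9 pahari and 0.00 in CC9 spretus.

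Along the chromosome, input and IP were compared over the 26 windows of each array. These windows share an array and a DNA sample, and their correlation is a description. Pearson's *r* was 0.40, 0.52 and 0.85 on the CC9 spretus arrays, with the highest value on replicate 3, which had the largest step in input. It was 0.59, 0.47 and 0.24 in CC9 pahari, 0.55, 0.72 and −0.13 in CC9 dunni and 0.12, −0.04 and 0.65 in CC9 mus. The relation thus differed between replicates of 1 line, and in CC9 mus replicate 3 it included the window at 100–105 Mb, with 12 probes, where its IP shift was 2.20. Between input and ratio, which has the input as its denominator, *r* was −0.62, −0.02 and −0.38 in CC9 spretus and −0.07, −0.33 and −0.21 in CC9 pahari. It was −0.39, −0.22 and 0.48 in CC9 mus and −0.08, 0.12 and −0.38 in CC9 dunni, so that its sign was not the same on all arrays.

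The log2 ratio of IP over input, centred on the array median, was the measure of methylation. Its shift on chromosome 8 was 0.05, 0.00 and 0.12 in CC9 mus (0.06 ± 0.06, SD, n = 3) and −0.08, −0.07 and 0.01 in CC9 pahari (−0.05 ± 0.05, SD, n = 3). It was −0.14, −0.06 and 0.11 in CC9 spretus and −0.04, −0.01 and 0.16 in CC9 dunni. In this shift the arrays of all lines overlapped, and replicate 3 was the highest of each line. The median of the ratio itself over the chromosome 8 probes, by array, was 0.02, 0.07 and 0.11 in CC9 mus, −0.16, −0.16 and −0.13 in CC9 pahari, −0.11, −0.07 and −0.05 in CC9 spretus and −0.01, 0.00 and 0.01 in CC9 dunni, and the lines did not overlap. In the later scan period alone the ratio shift was −0.01 in CC9 mus, −0.05 in CC9 pahari, 0.01 in CC9 spretus and 0.06 in CC9 dunni, and in the earlier period it was 0.00 in CC9 pahari, 0.00 in CC9 spretus and 0.04 in CC9 dunni.

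Much of the spread between replicates was shared with the rest of the array. When the median shift of all probes off chromosome 8 was subtracted on each array, a comparison chosen after the data were seen, the ratio shift was 0.06, 0.09 and 0.14 in CC9 mus (0.10 ± 0.04, SD, n = 3). It was then −0.10, −0.10 and −0.12 in CC9 pahari (−0.11 ± 0.01, SD, n = 3). The CC9 dunni arrays gave 0.03, 0.05 and 0.06 and the CC9 spretus arrays −0.06, 0.00 and −0.01. The lines no longer overlapped except CC9 mus and CC9 dunni, and their order was the reverse of that of the input. Chromosome 8 had the lowest ratio shift of the 20 chromosomes in CC9 pahari and the highest in CC9 mus and CC9 dunni. The ratio falls where the input rises unless IP rises by as much, and the part of this in the ratio was not tested.

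To see where IP followed the input, the chromosome 8 probes were divided by their mean log2 ratio over the lines into 3 groups of 1663, after the data were seen, and each group was set against probes of other chromosomes in the same range of ratios. In the lowest group the IP shift minus that of the other chromosomes was 0.18, 0.19 and 0.24 in CC9 pahari (0.20 ± 0.03, SD, n = 3) and −0.26, −0.15 and −0.24 in CC9 mus (−0.22 ± 0.06, SD, n = 3). In the highest group it was 0.03, −0.01 and 0.14 in CC9 pahari (0.05 ± 0.07, SD, n = 3) and −0.18, −0.07 and 0.13 in CC9 mus (−0.04 ± 0.16, SD, n = 3). In the middle group it was 0.09, 0.08 and 0.19 in CC9 pahari and −0.22, −0.06 and −0.08 in CC9 mus. After this subtraction these lines were apart in IP in the lowest and middle groups and overlapped in the highest. Without it they overlapped in the lowest group too, with IP shifts of 0.26, 0.23 and 0.53 in CC9 pahari and 0.61, −0.68 and −0.39 in CC9 mus. The input, with the subtraction, was 0.28 ± 0.03 (SD, n = 3) in CC9 pahari and −0.31 on each CC9 mus array in the lowest group, and 0.21 ± 0.11 and −0.13 ± 0.01 (SD, n = 3) in the highest. Without the subtraction it was 0.25 ± 0.14 and 0.00 ± 0.04 (SD, n = 3) in the lowest group and 0.23 ± 0.04 and −0.36 ± 0.02 (SD, n = 3) in the highest. The gap in input between the lines was thus smaller where the ratio was high with the subtraction and larger there without it, and no relation with the level of the ratio is read from these groups.

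Single windows were tested in limma on window medians of the log2 ratio, with each line against the mean of the other 3, at an adjusted p under 0.05 (Benjamini-Hochberg over the 513 windows). In CC9 mus, 3 of the 26 windows of chromosome 8 (11.5%) had a higher ratio, against 8.58% over the genome, and 0 had a lower ratio in limma, against 3.90%. At an unadjusted p under 0.05, 11 of the 26 windows (42.3%) passed, against 40.7% over the genome. In this fit the share of called windows on chromosome 8 was thus close to that of the genome. With arrays scaled to the same median absolute deviation, 53.8% passed at that unadjusted level in limma, against 36.1%. It was 50.0% against 36.5% with IP alone, and 46.2% against 42.9% with dim probes left out. With normexp 12 of 26 windows passed against 134 of 513, and with the scan period as a block 5 against 143. The closeness thus depends on the processing. Nothing in the labels says whether replicates came from separate cultures, and p-values reflect the spread between these arrays.

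The window at 120–125 Mb (375 probes) had median log2 ratios of 0.11, 0.53 and 0.95 on the CC9 mus arrays. On the other arrays it was −0.13, −0.11 and −0.03 in CC9 pahari, −0.01, 0.09 and 0.02 in CC9 spretus and 0.05, 0.04 and 0.03 in CC9 dunni. All CC9 mus arrays lay above all others, replicate 1 by little. The difference was 0.54 (limma, standard error SE 0.13, adjusted p = 0.0353). At 90–95 Mb (243 probes) the CC9 mus arrays gave 0.04, 0.47 and 0.45, CC9 pahari −0.17, −0.07 and −0.22, CC9 spretus −0.12, −0.14 and −0.05, and CC9 dunni 0.02, 0.04 and −0.01. Replicate 1 of CC9 mus was level with the highest CC9 dunni array, and the difference was 0.40 (limma, SE 0.08, adjusted p = 0.0353). The third window, 55–60 Mb (53 probes), gave 0.11, 0.30 and 0.44 in CC9 mus, −0.04, −0.08 and −0.09 in CC9 pahari, 0.00, −0.06 and −0.02 in CC9 spretus and 0.00, 0.03 and −0.12 in CC9 dunni. Here too the CC9 mus arrays were the highest, with a difference of 0.32 (limma, SE 0.07, adjusted p = 0.0353). With dim probes left out this difference was 0.17 and was not called (adjusted p = 0.163 from limma), whereas the windows at 120–125 Mb and 90–95 Mb gave 0.56 and 0.38 (adjusted p = 0.0221 and 0.00918 from limma).

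In the same 3 windows the input of CC9 mus was low. Its input shift was −0.22, −0.21 and −0.22 at 120–125 Mb, −0.27, −0.25 and −0.13 at 90–95 Mb and −0.27, −0.27 and −0.22 at 55–60 Mb. The IP signal alone differed from the other lines by 0.04 at 120–125 Mb (adjusted p = 0.815 from limma), −0.01 at 90–95 Mb (0.948 from limma) and −0.14 at 55–60 Mb (0.297 from limma). A higher ratio thus stood beside a lower denominator and an IP signal that passed the test in none of the 3 windows. With IP alone in place of the ratio, limma called 0 windows of chromosome 8 higher in CC9 mus (11.1% over the genome) and 10 lower (6.82% over the genome). At an unadjusted p under 0.05 in limma 13 passed (50.0%), against 36.5% over the genome. Since chromosome 8 was chosen for the input of the same DNA, nothing is read from this count.

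These calls rested on few arrays. The 3 windows were also called with the slide as a random block (adjusted p = 0.0459 from limma for each), where 29 were higher and 10 lower over the genome. With the scan period as a block 0 were called, and 5 had an unadjusted p under 0.05 in limma, against 143 of 513 over the genome. Within the later scan period limma called 0, and 0 had an unadjusted p under 0.05, but this fit has 1 array for each of the other lines and few degrees of freedom. The differences in either fit were 0.52 at 120–125 Mb, 0.42 at 90–95 Mb and 0.36 at 55–60 Mb, close to the 0.54, 0.40 and 0.32 of the main fit. With normexp they were 0.35, 0.25 and 0.17 in the same order, and without CC9 mus replicate 3 they were 0.32, 0.34 and 0.24. Without CC9 mus replicate 1, limma called 8 windows higher and 4 lower (139 and 155 of 513 over the genome). Without CC9 mus replicate 2 or 3 it called 0, with 9 and 8 at an unadjusted p under 0.05 (142 and 117 over the genome). Limma also called 0 without any 1 array of CC9 pahari or CC9 spretus, and without CC9 dunni replicate 1 or 2. In these fits 7 to 10 had an unadjusted p under 0.05 in limma (178 to 203 of 513 over the genome). The 3 windows were called without CC9 dunni replicate 3 (adjusted p = 0.0482 from limma for each), where 29 were higher and 14 lower over the genome. With arrays scaled to the same median absolute deviation (equal spread), 8 windows were higher (30.8%) and 1 was lower (3.85%). Over the genome 61 and 42 of 513 were called in that setting. With normexp limma called 0, and 12 had an unadjusted p under 0.05, against 134 of 513 over the genome.

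In the other lines limma called 0 windows on chromosome 8 and 0 in the genome (0%) in either direction. At an unadjusted p under 0.05, 6 of the 26 windows of chromosome 8 passed in limma for CC9 pahari (24 of 513 over the genome), 2 for CC9 spretus (27) and 3 for CC9 dunni (29). Since chromosome 8 was chosen for its input, the denominator of the ratio, nothing is read from these shares. The window at 15–20 Mb had the lowest ratio shift in CC9 pahari, at −0.23, −0.23 and −0.36, beside an input shift of 0.29, 0.30 and 0.36 and an IP shift of 0.10, −0.01 and −0.05. On these arrays the input was raised and IP was near the mean of the lines. In the same window the CC9 mus ratio shift was −0.05, 0.48 and 1.24 and its IP shift −0.24, 0.53 and 0.91. These CC9 mus arrays enter the mean of the lines. At 65–70 Mb, where the input was highest, the mean ratio shift was −0.04, and at 100–105 Mb, where the input was lowest, with 12 probes, it was −0.22. Without CC9 mus replicate 1, which is part of the comparison, limma called 5 windows lower in CC9 pahari (27 over the genome, with 33 higher), 1 lower in CC9 spretus (15 over the genome) and 1 higher in CC9 dunni (12 over the genome).

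At the level of single probes, limma called 225 of the 4989 probes of chromosome 8 in CC9 mus, at an adjusted p under 0.05 over all 88737 probes. The ratio was higher at 174 (3.49%), against 2.76% of all probes, and lower at 51 (1.02%), against 1.81%. At an unadjusted p under 0.05, 1373 passed (27.5%), against 28.9% of all probes. The share of probes called was thus near that of the array, with higher calls somewhat above it and lower calls somewhat below it. All 3 CC9 mus arrays lay beyond the 9 others at 136 of the higher probes, in 82 runs, and at 36 of the lower probes, in 29 runs, where a run joins neighbouring probes no further than 1000 bp apart. These numbers were not set beside all probes of the array, and nothing about chromosome 8 is read from them. With IP alone, 103 probes of chromosome 8 were higher in CC9 mus (2.06%, against 4.38% of all probes) and 66 lower (1.32%, against 0.451%). The split on chromosome 8 thus moved from 77.3% to 60.9% higher. Over all probes it moved the other way, from 2453 higher and 1603 lower to 3889 and 400.

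Equal spread gave 395 higher and 249 lower probes, or 61.3% higher, against 5031 higher and 5670 lower over all probes. Limiting the fit to probes well above background in both channels gave 250 higher and 133 lower, or 65.3% higher, against 3030 and 3397 of all 59122 such probes. The input of CC9 mus, the denominator of the ratio, was low on chromosome 8 by the choice of the chromosome, so that nothing is read from the direction of these calls. The count in limma was 1128 higher and 807 lower without CC9 mus replicate 1 (17572 and 18281 over all probes). It was 0 and 5 without replicate 3 (7 and 117 over all probes) and 0 without replicate 2. In that last fit 1077 had an unadjusted p under 0.05 in limma, against 19689 over all probes. Without any 1 array of the other lines limma called 0, with 1154 to 1369 at an unadjusted p under 0.05 (21506 to 25125 over all probes). With the slide as a random block limma called 0 (1199 at an unadjusted p under 0.05), and with the scan period as a block 0 (1024). Over all probes 22429 passed at that level with the slide as a random block and 19021 with the scan period as a block. In the later scan period alone each other line had 1 array, and no count of probes is given. Since all CC9 mus arrays belong to the later period, line and scan period are partly confounded in these fits.

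In CC9 pahari, CC9 spretus and CC9 dunni limma called 0 probes on chromosome 8, against 0.00113% of all probes higher in CC9 spretus and 0% in the other directions and lines. At an unadjusted p under 0.05, 202, 118 and 252 probes of chromosome 8 passed in limma for these lines, against 2863, 1752 and 4308 of all 88737.

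The rises with the largest fitted differences on chromosome 8 in CC9 mus, among called probes whose arrays did not overlap the others, all lay in runs with several probes. At probe A_68_P25829661, from 46418653 to 46418700, the log2 ratio was 0.30, 2.28 and 4.52 on the CC9 mus arrays, and the 9 others lay between −2.51 and −0.20. The difference was 3.70 (limma, SE 0.76, adjusted p = 0.0405). At probe A_68_P26065162, from 94884751 to 94884802, the CC9 mus arrays gave 0.30, 2.51 and 3.44 and the others −2.76 to −0.50. This probe lay at the end of the longest run of the chromosome, with 36 probes, and its difference was 3.65 (limma, SE 0.64, adjusted p = 0.0405). At both probes the IP signal was well above background on all CC9 mus arrays and on 3 of the 9 others, so that the lower values are poorly measured. With normexp the differences were 0.74 and 1.06 (adjusted p = 0.199 and 0.133 from limma), so that their size depends on the background correction.

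The third rise, from 124859879 to 124859933, lay in the window called at 120–125 Mb and had IP well above background on all 12 arrays. The CC9 mus arrays gave 0.35, 2.35 and 5.38, and the others lay between −1.11 and 0.24. Replicate 1 exceeded the highest of the others by little, and the difference was 3.22 (limma, SE 0.73, adjusted p = 0.0426), or 1.88 without CC9 mus replicate 3 (adjusted p = 0.0753 from limma). With normexp it was 2.22 (adjusted p = 0.0965 from limma), more than at the first 2 probes. With the IP signal alone the 3 rises were 1.64, 3.01 and 2.66 in the order given (adjusted p = 0.0897, 0.0291 and 0.0490 from limma), and the first of them did not pass.

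Among the falls, probe A_68_P25656261, from 11561742 to 11561794, read 0.14, 1.48 and 2.54 in CC9 mus and 4.14 to 5.56 on the other arrays. The site was thus strongly enriched in the 9 other arrays and less so in CC9 mus, with a difference of −3.24 (limma, SE 0.48, adjusted p = 0.0405). It was the one probe of chromosome 8 still called with normexp (adjusted p = 0.0366 from limma). Over all 88737 probes normexp gave 17 higher and 7 lower calls in CC9 mus. Probe A_68_P26135495, from 108228498 to 108228542, gave 0.12, 1.23 and 1.58 in CC9 mus and 2.20 to 4.66 elsewhere. The 9 other arrays were enriched and those of CC9 mus less so, with replicate 1 close to the array median. The difference was −2.34 (limma, SE 0.39, adjusted p = 0.0405). The third fall, from 13287426 to 13287470, gave −0.78, −2.61 and −2.74 in CC9 mus and −0.32 to 0.57 elsewhere, a difference of −2.14 (limma, SE 0.39, adjusted p = 0.0405). Here the ratio was below the array median in CC9 mus and near it in the other lines.

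IP was well above background on all 12 arrays at these 3 falls. With the IP signal alone the falls were −2.39, −2.39 and −1.85 in the order given (adjusted p = 0.0275, 0.0268 and 0.0320 from limma). The lower ratio at these sites was thus present in IP itself. The adjusted p of the 6 named probes was 0.155 to 0.173 in limma once the scan period was a block, where the differences were 2.66, 2.84 and 3.41 for the rises and −3.92, −2.61 and −1.86 for the falls, and 0.0655 with the slide as a random block. Leaving out any 1 of the 9 arrays of the other lines, or CC9 mus replicate 2, raised the adjusted p above 0.05 at all 6 in limma. Without CC9 mus replicate 3 it stayed below 0.05 only at A_68_P25656261 (0.0291 from limma), and without replicate 1 it was lower at all 6.

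No probe passed in the other lines, and the single largest difference without overlap is given for each direction. In CC9 spretus the largest was at 112261101 to 112261147, with 2.37, 1.62 and 2.37 against 0.24 to 0.61 on the 9 others, which did not pass (adjusted p = 0.167 from limma). In CC9 dunni it was at 108660491 to 108660535, with 0.90, 0.89 and −0.11 against −2.24 to −0.28 (adjusted p = 0.846 from limma). In CC9 pahari it was at 74217134 to 74217180, where the ratio was lower, with −0.72, −0.79 and −3.0 against −0.30 to 2.14 (adjusted p = 0.964 from limma). At this site IP was well above background on 2 of the 3 CC9 pahari arrays, and the difference of −2.09 was −0.11 with normexp. The CC9 spretus arrays lay close together and well above the others. In CC9 pahari replicate 3 was far below the others, and without it the difference was −1.34 (adjusted p = 0.993 from limma). In the opposite directions the largest were −1.58 in CC9 spretus, at 33118929 to 33118974, −1.02 in CC9 dunni, at 96337341 to 96337385, and 0.74 in CC9 pahari, at 112393252 to 112393296. None of them passed, with adjusted p of 0.707, 0.846 and 0.964 from limma, and IP was well above background on 0 of the 3 CC9 spretus arrays at the first.

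The level of enrichment was then counted as a mean log2 ratio above 2 or below −2 in a line, which involves no test. The value of 2 is that of the study's cutoff, which was set on differences between samples and joined to a filter on Z-scores, whereas here it is set on the level of IP over input within a line and no such filter was applied. In CC9 mus, 575 of the 4989 probes (11.5%) were above 2, against 9.39% of all probes, and 170 (3.41%) were below −2, against 3.25%. In CC9 spretus 345 (6.92%) were above 2, against 5.16%, and 60 (1.20%) below −2, against 1.08%. In CC9 dunni the counts were 340 (6.81%, against 5.32%) and 34 (0.681%, against 0.586%). In CC9 pahari they were 289 (5.79%, against 4.71%) and 6 (0.120%, against 0.124%). Chromosome 8 thus held a somewhat larger share of enriched probes than the array in every line, CC9 pahari with its higher input included, and a share of depleted probes near that of the array.

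The CC9 mus arrays differed in spread, with an SD of the log2 ratio over all probes of 0.53, 1.85 and 2.01 against 1.09 to 1.38 on the other arrays. With equal spread the counts in CC9 mus were 247 above 2 and 16 below −2, and below −2 they were 23 in CC9 pahari, 94 in CC9 spretus and 101 in CC9 dunni, so that CC9 mus then had the lowest number. Counts with equal spread, with an array left out or with all 3 arrays required were not set beside all probes. Nothing particular to chromosome 8 is read from them. Single arrays also moved the counts. Above 2, CC9 mus had 1009 probes without replicate 1 and 256 without replicate 3, and 59 when all 3 arrays had to pass. Below −2, it had 527 without replicate 1, 30 without replicate 2 and 113 without replicate 3. Without replicates 1, 2 and 3 of the line in turn, the probes below −2 numbered 13, 12 and 29 in CC9 pahari, 9, 95 and 184 in CC9 spretus and 10, 18 and 149 in CC9 dunni. Of the probes above 2, 228 were so in all 4 lines and 310 in 1 line (3174 and 4581 over all probes). Below −2, 1 probe was so in all 4 lines and 216 in 1 line (4 and 3524 over all probes). In both directions most probes were beyond the threshold in fewer than 4 lines, and far more enriched than depleted probes were common to all 4, on chromosome 8 as over the array.

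The 4989 probes formed 824 runs, of which 770 had at least 3 probes. The mean log2 ratio over the lines was above 2 in 62 of these and below 0 in 440. Runs of other chromosomes were not set beside them, and nothing particular to chromosome 8 is read from these numbers. The 3 runs with the highest mean lay close together. The highest, with 7 probes from 46108650 to 46109613, had a log2 ratio of 2.75, 6.15 and 5.97 on the CC9 mus arrays, 5.71, 5.61 and 7.24 in CC9 pahari, 6.02, 5.99 and 8.03 in CC9 spretus and 5.74, 5.65 and 7.13 in CC9 dunni. CC9 mus replicate 1 was the lowest array, and replicate 3 was the highest of each divergent line. The runs from 46122297 to 46122764 and from 46095191 to 46096091 had means over the lines of 5.86 and 5.57, and CC9 mus replicate 1 was again the lowest array, at 2.56 and 3.22.

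The lowest run, with 6 probes from 107165289 to 107166027, had a log2 ratio of −0.75, −2.95 and −2.78 in CC9 mus, −0.97, −1.06 and −1.09 in CC9 pahari, −2.30, −1.51 and −1.06 in CC9 spretus and −1.88, −1.51 and −0.51 in CC9 dunni. The ratio was below the array median on all 12 arrays, and the lines overlapped. The runs from 4275589 to 4276067 and from 77633348 to 77633885 followed with means over the lines of −1.46 and −1.35, and were also below 0 on every array. Runs were ranked by the mean over the lines, so that a run extreme in 1 line alone need not be among these.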

How the data were processed

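Input DNA and DNA immunoprecipitated with an antibody to 5-methylcytosine were measured on 12 arrays of 88737 probes, 3 for each line, grouped by the sample labels. Per the file headers, scans were read with Agilent Feature Extraction 11.0.1.1, which subtracted background, removed spatial trends and normalised the dyes linearly, and the signals that the authors deposited are intensities from that step. The deposited table of the series holds, as the array files do, log10 ratios (IP/input) without centring (largest difference 0). From the intensities, log2 input, log2 IP and log2(IP/input) were computed, outlier spots were set to missing, and arrays were centred on their medians (parameters: windows of 5 Mb with at least 10 probes, threshold of 0.2, gaps of at most 1000 bp). Gene annotation of another build than mm9 was not used here.

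Chromosome 8 was selected by the position of the probe. The members and lists were chosen with earlier results of these data known. Windows and probes were tested with limma 3.58.1 (R 4.3.3; lmFit and eBayes, 4 line means, 8 residual degrees of freedom, each line against the mean of the other 3) and Benjamini-Hochberg adjustment over all windows or all probes. The fit was checked on simulated data. Python 3.11.15, numpy 2.4.6 and pandas 2.3.3 were used.

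Named were, for each line, the 2 windows with the highest and the 2 with the lowest input shift, called windows, and the 3 largest rises and 3 largest falls among called probes whose 3 arrays lay beyond the 9 others, 1 per run; where none passed, the largest without overlap; and the 3 runs of at least 3 probes with the highest and the 3 with the lowest mean ratio. Alternatives were centring off chromosomes 8 and 1, ratios not centred, the 9 other arrays as reference, normexp (offset 50, on median spot and background signals), equal spread, dim probes left out, outlier spots kept, other window sizes and probe minimums, IP alone, the 1663 probes with the brightest input, the threshold on every array, arrays of 1 scan period, blocks for replicate number, slide and scan period, and each array left out in turn. Those added after the data were seen are named as such where they are used. Arrays have no count depth, and signal over background takes its place. The median spot signal above local background on the arrays was 82.0 to 383 for input and 30.0 to 266 for IP.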

Additional observations from a re-analysis of the deposited data

How the results depend on the processing

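The signs of the input shift of each line on chromosome 8 held in all settings except CC9 spretus in the earlier scan period (0.00). With the line left out of its own reference the shift was −0.24 in CC9 mus, 0.31 in CC9 pahari, 0.14 in CC9 spretus and −0.16 in CC9 dunni, as its construction implies. With normexp it was −0.09 in CC9 mus, 0.03 in CC9 spretus and −0.04 in CC9 dunni. In the later scan period it was 0.14 in CC9 spretus and −0.17 in CC9 dunni, and in the earlier period, an alternative added after the data were seen, 0.15 in CC9 pahari. The IP shift with normexp was 0.05 in CC9 pahari, 0.00 in CC9 spretus and −0.03 in CC9 dunni, and with dim probes left out −0.21 in CC9 mus. By scan period, also added later, it was −0.14 in CC9 dunni and 0.24 in CC9 pahari in the later and 0.08 in CC9 pahari in the earlier period. The ratio shift was −0.09 in CC9 mus and 0.01 in CC9 pahari in the group of probes with the brightest input, −0.01 in CC9 mus in the later scan period, and −0.11 in CC9 pahari after subtraction of the other probes of the array. The cause of these changes was not tested. In the other settings, 64 for the input, 56 for IP and 75 for the ratio over the 4 lines, the shift moved by less than the spread between replicates.

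Lowered windows in CC9 mus numbered 19 with the line left out of the reference and 1 with normexp (47 and 22 of 513 over the genome). Raised windows in CC9 spretus numbered 9 and 0 in these settings, 0 with dim probes left out, 12 in the later scan period, 7 of 54 with 2 Mb windows and 0 of 14 with 10 Mb windows. Over the genome these were 28 and 6 of 513, 6 of 510, 18 of 513, 28 of 1078 and 5 of 274. Lowered windows in CC9 dunni numbered 5 with the line left out of the reference, 0 with normexp, 5 in the later scan period and 1 with 10 Mb windows. Over the genome these were 14, 2 and 19 of 513 and 3 of 274. Raised windows in CC9 pahari numbered 9 with normexp. Leaving out each array in turn gave 0 to 3 raised windows in CC9 spretus and 1 to 3 lowered windows in CC9 dunni.

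The windows called in CC9 mus by limma numbered 0 with the scan period as a block, with normexp and in the later scan period alone (5, 12 and 0 at an unadjusted p under 0.05), 9 with equal spread, 5 with dim probes left out and 10 with IP alone. The probes called in CC9 mus by limma numbered 0 with the slide as a random block and with the scan period as a block (1199 and 1024 at an unadjusted p under 0.05). They numbered 1 with normexp, 644 with equal spread and 383 with dim probes left out. Over all 88737 probes normexp gave 17 higher and 7 lower. With equal spread 8 of the CC9 mus windows were higher and 1 lower, against 61 and 42 of 513 over the genome. With dim probes left out 5 were higher and 0 lower (42 and 47 of 501). With IP alone 0 were higher and 10 lower (57 and 35 of 513). At an unadjusted p under 0.05 in limma, 143 windows passed over the genome with the scan period as a block and 134 with normexp. Equal spread gave 1 lower window in CC9 spretus, where 0 were higher and 1 lower of 513 over the genome. In CC9 dunni it gave 1 higher probe, against 20 higher and 1 lower over all 88737 probes. Leaving out each array in turn gave 0 to 12 windows and 0 to 1935 probes in CC9 mus, 0 to 1 windows in CC9 spretus and in CC9 dunni, and 0 to 5 windows in CC9 pahari. At the named probes the direction held in every setting.

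Probes above 2 numbered 59 in CC9 mus with the threshold on every array, 247 with equal spread and 170 with normexp, and with normexp 163 in CC9 pahari, 193 in CC9 spretus and 162 in CC9 dunni. Probes below −2 with the threshold on every array numbered 0 in CC9 mus, 0 in CC9 pahari, 2 in CC9 spretus and 1 in CC9 dunni. With equal spread they numbered 16, 23, 94 and 101, and with normexp 48, 0, 4 and 1, in the same order of lines. Counts beyond 2 or −2 in the alternative settings were not set beside all probes of the array. Leaving out each array in turn gave 256 to 1009 probes above 2 and 30 to 527 below −2 in CC9 mus, and below −2 9 to 184 in CC9 spretus, 10 to 149 in CC9 dunni and 6 to 29 in CC9 pahari.

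With the replicate number as a block, limma called 403 probes and 3 windows in CC9 mus, and no call on chromosome 8 in another line was changed. Over all 88737 probes it called 4417 higher and 2984 lower, beside 306 and 97 on chromosome 8. Over the 513 windows of the genome it called 46 higher and 28 lower. Replicate 3 of CC9 spretus, CC9 pahari and CC9 dunni was scanned on the same day of the later period, and the scan period was used as a separate block. Beyond that, the labels name nothing that a number shares. The numbers were not taken as pairing the arrays. The rule asks for a correlation of deviations from the line means over 0.1 in every pair with the same number. It was over 0.1 in 12 of 18 such pairs (median 0.13) and in 13 of 36 pairs with different numbers (median −0.11), and 5 of 12 arrays correlated best with an array of their own number. The arrays of each line were 3, line and scan day are the same for CC9 mus, and dim IP signals on CC9 mus replicate 2 limit its low ratios.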
